A study of Mus musculus with 44 samples.

Results

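The comparison asked in which genes the first response to TGFb1 differed between cultured macrophages and cultured microglia, the resident macrophages of the central nervous system. For each of 12335 genes, the change in macrophages (mean of 1 h and 3 h minus 0 h) was taken less the same change in microglia. It used 12 of the 44 libraries of a mouse series that also sampled cells sorted from the injured spinal cord. All 12 came from the strain C57BL/6 and from cultures given TGFb1 at 100 ng/ml. The macrophages had been grown from bone marrow with M-CSF, the growth factor that drives their differentiation, and were sampled at 0 h (2 libraries), 1 h (2 libraries) and 3 h (2 libraries). The microglia came from primary glial cultures of newborn mice and were sampled at the same 3 times, with 2 libraries each. The cell types therefore also differed in the age of the source, its tissue and its growth medium. The 0 h libraries stand for the culture before TGFb1. Cultures kept for 1 or 3 h without TGFb1 were not analysed here, so handling and time in culture cannot be told apart from the cytokine in either change. The time tag of the second microglia library at 1 h reads 2 h, whereas its title reads 1 h, and its group here follows the title. Whether the libraries of a group came from separate animals or cultures is in no label, so a p-value here covers the spread among these libraries, which may be technical.

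TGFb binds a pair of receptor kinases that phosphorylate Smad2 and Smad3, which join Smad4, enter the nucleus and act on target genes together with factors such as AP-1. Among the targets are brakes on the pathway itself, such as Smad7 and Skil. The receptors can also feed the MAP kinase cascade, whose own early targets include Fos and the Dusp phosphatases. In the brain TGFb1 is known to be needed for microglia to keep their identity, and in macrophages it is known to temper inflammatory genes.

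Each value is the signal of a gene in a library, scaled by the authors in a way that no label names. No gene was listed at 0, and from the spacing of the values a gene at exactly 1 was taken to have no read. The totals of the scaled values were 1714241 to 1828503 in macrophages and 1614429 to 1648441 in microglia, and the estimated reads were 1399627 to 1879803 in macrophages and 1746405 to 2249041 in microglia. Of all genes, 8.84 to 10.1% were listed at 1 in macrophages and 1.39 to 1.78% in microglia. The Pearson correlation of log2 values across genes was 0.968 to 0.975 between libraries of a group. The 11 measured macrophage markers made up 1.87 to 2.07% of the total in macrophages and 2.52 to 2.85% in microglia. The 7 measured microglia markers made up 0.0211 to 0.0255% in macrophages and 0.369 to 0.444% in microglia. P2ry12, a purine receptor that defines resting microglia, was low even in microglia, at 9.46 to 22.4 in the 6 libraries, against 1.00 to 6.80 in macrophages. Markers of oligodendrocytes (10 measured) made up 0.0111 to 0.0140% in macrophages and 0.0663 to 0.0822% in microglia, and those of astrocytes (10 measured) 0.00526 to 0.00764% in macrophages and 0.0229 to 0.0256% in microglia. Neutrophil markers (8 measured) made up 0.0491 to 0.0562% in macrophages and 0.0339 to 0.0396% in microglia. The part of these other cells in the results was not tested.

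More genes passed the test in macrophages than in microglia, and most of those that differed between the cell types rose in macrophages. In limma's fit with Benjamini-Hochberg adjustment over all genes (adjusted p under 0.05), 829 genes (6.72%) changed early in macrophages, 525 up (4.26%) and 304 down (2.46%). In microglia 47 genes (0.381%) changed, 35 up (0.284%) and 12 down (0.0973%). The difference itself passed for 185 genes (1.50%), with 137 higher in macrophages (1.11%) and 48 lower (0.389%). Among genes with a mean value of at least 20, the median size of a change at 3 h was 0.26 in macrophages and 0.14 in microglia on the log2 scale. Of the 137 genes, 121 rose in macrophages without a call in microglia and 11 rose in both cell types. Of the 48, 39 fell in macrophages without a call in microglia. The median change of the 137 was 1.35 in macrophages and 0.03 in microglia (log2), and that of the 48 was -0.83 in macrophages and 0.08 in microglia. Leaving out a single library left 93 to 151 genes higher and 13 to 50 lower, and the count of lower genes fell to 13 without the second microglia library at 0 h.

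**Figure D1:**
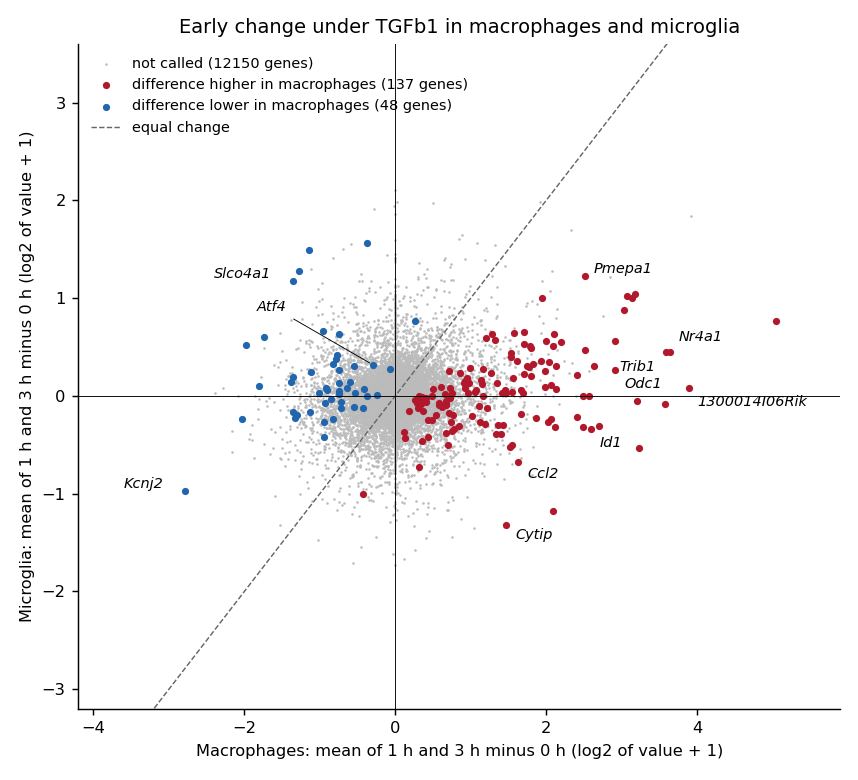
Change from 0 h to the mean of 1 h and 3 h for each of 12335 genes, as log2 of the value + 1, in macrophages (horizontal) and in microglia (vertical). Red points are the 137 genes with a higher change in macrophages and blue points the 48 with a lower one (limma, adjusted p under 0.05); most red points lie far right of 0 and close to 0 on the vertical axis, which is where a change of macrophages alone falls.

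The genes that changed more in macrophages had often started below microglia. At 0 h the level differed between the cell types in 6301 genes (51.1%), with 2648 higher (21.5%) and 3653 lower (29.6%) in macrophages. Of the 137 genes, 66 were lower in macrophages at 0 h, 45 were higher and 26 did not pass. For 19 of them, the higher of the macrophage means at 1 h and 3 h stayed below the microglia mean at 0 h. The 0 h libraries enter both the level and the change, so the counts are not independent of each other.

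Among the 23 feedback genes and early Smad targets, all measured, 8 had a higher change in macrophages (1.11% of all genes) and none a lower one (0.389% of all genes), with a median difference of 0.57, against 0.01 over all genes (log2). Id1, an inhibitor of helix-loop-helix factors and a classical target of Smads, had values of 74.3 and 95.5 in macrophages at 0 h, 510 and 539 at 1 h, and 484 and 520 at 3 h. In microglia its values were 390 and 428 at 0 h, 361 and 340 at 1 h, and 294 and 302 at 3 h. Id1 thus rose above the microglia level in macrophages while every treated microglia library stayed below both of those at 0 h. Its difference of changes was 2.93 ± 0.15 on the log2 scale (SE), a 7.61-fold ratio (limma, adjusted p = 5.2e-10), and it held in every alternative fit. Id2, of the same family, had a smaller difference of 0.46 ± 0.06 (limma, adjusted p = 0.00022). Id3 differed by 0.57 ± 0.15 (limma, adjusted p = 0.0609), which did not pass. It passed with a pseudocount of 4 (adjusted p = 0.0457), with a mean value of at least 10 (0.0418), with array weights (0.0464) and without the second macrophage library at 0 h (0.00341) or at 1 h (0.0261). Its difference was 1.20 at 1 h (limma, adjusted p = 0.000619) and -0.06 at 3 h (limma, adjusted p = 0.931). Id3 stood at 799 and 647 at 1 h and 203 and 221 at 3 h in macrophages, against 492 and 457 at 1 h and 312 and 359 at 3 h in microglia.

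Smad7, which blocks the receptor and recruits ubiquitin ligases to it, was at 6.56 and 12.2 in macrophages at 0 h, 80.7 and 93.3 at 1 h, and 69.6 and 58.5 at 3 h. In microglia it was at 103 and 82.6 at 0 h, 146 and 140 at 1 h, and 134 and 126 at 3 h. The groups of library changes did not overlap, as in 123 of the 137 higher genes. Smad7 rose by 2.92 in macrophages and changed by 0.56 in microglia (log2). The difference was 2.35 ± 0.31 (limma, adjusted p = 0.000149). Its level in macrophages at 3 h was still below that of microglia at 0 h. Skil, a corepressor that binds Smads and is degraded when the pathway is switched on, had a difference of 0.77 ± 0.15 (limma, adjusted p = 0.0104), a call lost without the second macrophage library at 0 h (0.59, adjusted p = 0.0813) or the second microglia library at 0 h (0.72, adjusted p = 0.0802), and in the fit of 0, 1 and 3 h only (adjusted p = 0.051). Cdkn1a, the cell-cycle inhibitor p21, had a difference of 0.74 ± 0.09 (limma, adjusted p = 8.5e-05).

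Pmepa1, a membrane protein that keeps Smads from the receptor, rose in both cell types and later than Smad7. Values in macrophages were 23.0 and 20.8 at 0 h, 33.1 and 39.0 at 1 h, and 449 and 467 at 3 h. Those in microglia were 279 and 241 at 0 h, 397 and 385 at 1 h, and 959 and 921 at 3 h. Its difference was 0.10 at 1 h (limma, adjusted p = 0.942) and 2.47 at 3 h (limma, adjusted p = 3.48e-09). Tgfbi, a matrix protein named for its induction by TGFb, followed the same course, with a difference of 0.33 at 1 h (limma, adjusted p = 0.684) and 1.53 at 3 h (limma, adjusted p = 3.23e-05). Its values at 3 h were 3397 and 3011 in macrophages, against 504 and 521 at 0 h. In microglia they were 291 and 307 at 3 h, against 174 and 110 at 0 h.

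The 17 measured ligands, receptors and Smads of the pathway gave no call, and their median difference was -0.04. Tgfbr1, the signalling type I receptor, rose in both cell types by nearly the same size, with 0.50 ± 0.10 in macrophages (limma, adjusted p = 0.00399) and 0.51 ± 0.10 in microglia (limma, adjusted p = 0.028). Its difference was -0.01 ± 0.14 (limma, adjusted p = 0.995). The level of Tgfbr1 was lower in macrophages at 0 h, at 187 and 138, against 461 and 430 in microglia. Tgfbr2, the type II receptor that binds the ligand, was at 84.2 to 133 over the 6 macrophage libraries, against 272 to 308 over the 6 of microglia. Its difference was -0.04 ± 0.21. At single times, 1 member passed at 1 h and 1 at 3 h, both singled out after their values were seen. Lrrc33 (current symbol Nrros), which holds latent TGFb1 on the surface of myeloid cells, had a difference of 0.98 at 1 h (limma, adjusted p = 0.00982), with a fall of 0.69 in microglia over both times (limma, adjusted p = 0.00459). Smad3 had a difference of 2.84 at 3 h (limma, adjusted p = 0.0196), at 23.9 and 18.7 in macrophages at 3 h, against 3.28 and 1.22 at 0 h, and between 23.4 and 34.1 in microglia. Its early difference of 1.53 ± 0.58 did not pass (limma, adjusted p = 0.261).

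**Figure D2:**
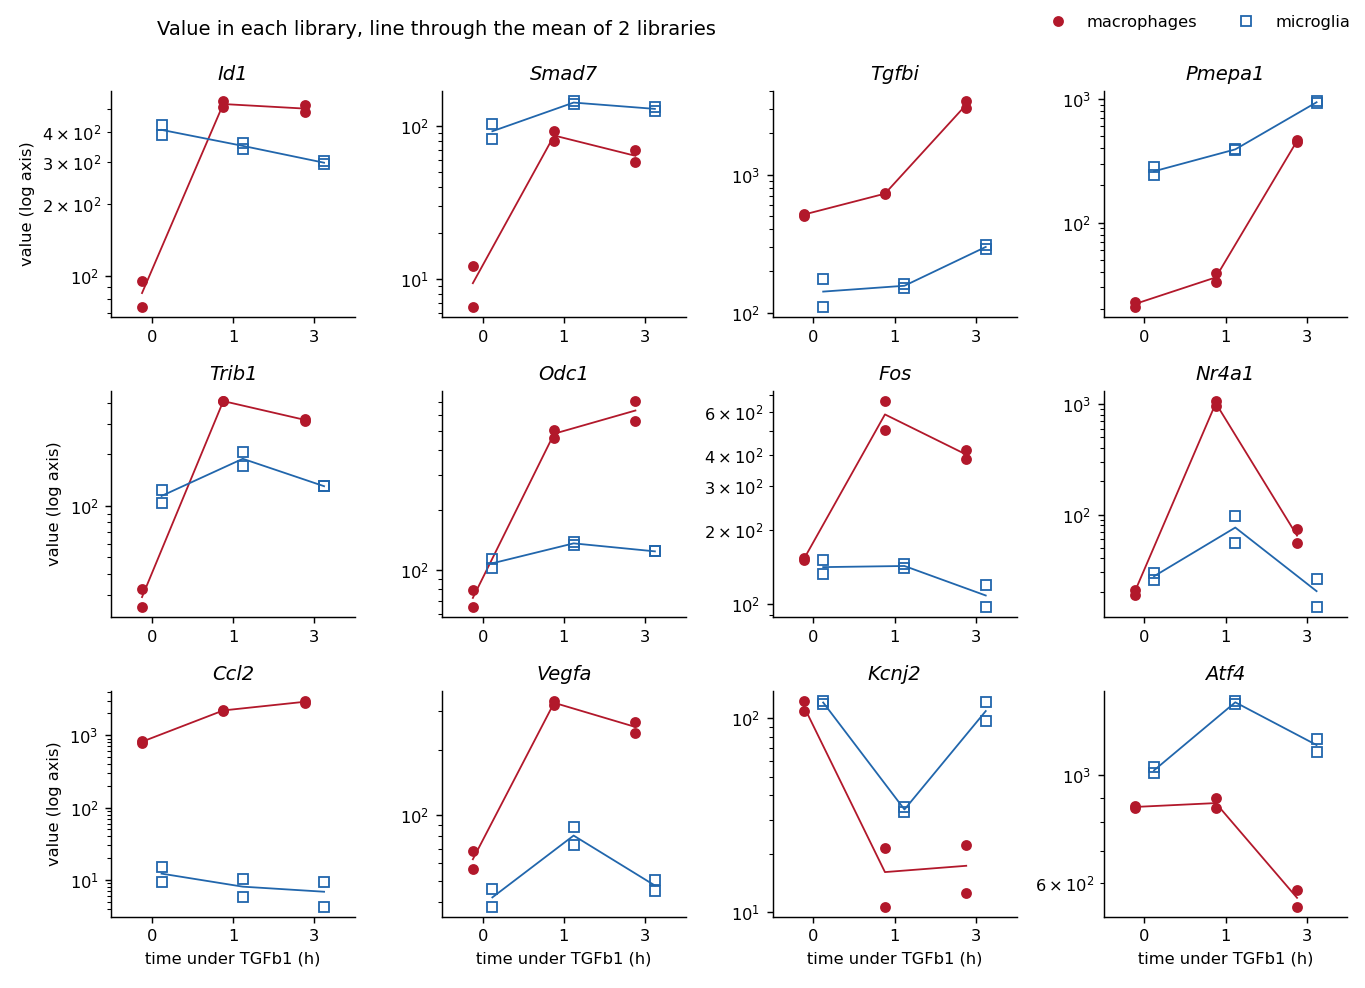
Scaled value in each library (log axis) at 0, 1 and 3 h under TGFb1 for 12 genes, with macrophages as filled circles, microglia as open squares and a line through the mean of the 2 libraries of a group. Id1 in macrophages passes the microglia level, Smad7 and Pmepa1 stay below it, Nr4a1 peaks at 1 h, and Atf4 ends below its 0 h values in macrophages and above them in microglia.

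Immediate early genes, most of which encode transcription factors, are switched on without new protein synthesis. They formed the list with the highest median difference, at 1.32. Of its 25 measured members, 10 had a higher change in macrophages (1.11% of all genes) and 1, Atf3, a lower one (0.389% of all genes). Within macrophages 20 of the 25 rose (4.26% of all genes) and 1 fell (2.46%), and within microglia 1 rose, Junb (0.284%). Fos, the AP-1 subunit, was at 150 and 153 in macrophages at 0 h, 507 and 663 at 1 h, and 418 and 387 at 3 h. It was at 150 and 132 in microglia at 0 h, 145 and 140 at 1 h, and 119 and 97.5 at 3 h. The cell types thus had the same level of Fos at the start, and treated libraries of macrophages lay above all others. Its difference was 1.85 ± 0.23, or 3.6-fold (limma, adjusted p = 7.52e-05). Fosl2, another partner of Jun proteins, had a difference of 1.58 ± 0.18 (limma, adjusted p = 2.74e-05). Fosl1 had one of 3.76 ± 0.65 (limma, adjusted p = 0.00246) from values of 21.8 to 37.9 in treated macrophages, against 1.22 and 3.28 at 0 h. Its values in microglia lay between 1.65 and 6.53, so few reads stand behind that difference.

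The members of this list differed in how long the rise lasted. Nr4a1, an orphan nuclear receptor, reached 1069 and 972 in macrophages at 1 h and was at 73.8 and 55.0 at 3 h, against 18.6 and 20.8 at 0 h. Microglia had 25.4 and 29.7 at 0 h, 55.3 and 97.1 at 1 h, and 25.8 and 14.6 at 3 h. Its difference was 4.24 at 1 h (limma, adjusted p = 0.000293) and 2.13 at 3 h (limma, adjusted p = 0.041). A direct test of the step between 1 h and 3 h did not pass for Nr4a1. Among the 137 higher genes it passed downward for 2, Rhob and Junb. Junb, an AP-1 subunit and a Smad target, rose in both cell types. It reached 1631 and 1588 in macrophages at 1 h, against 325 and 304 at 0 h, and in microglia 833 and 860 at 1 h, against 491 and 452 at 0 h. Its difference dropped by 0.91 between 1 h and 3 h (limma, adjusted p = 9.23e-05). Egr1, a zinc-finger factor of the same class singled out after its values were seen, was at 261 and 239 in macrophages at 1 h and 3.12 and 12.9 at 3 h. Microglia had 308 and 263 at 1 h and 105 and 93.2 at 3 h. Averaged over both times, its difference was 1.37 ± 0.75 and did not pass (limma, adjusted p = 0.516). Atf3, a stress-induced repressor, was at 805 and 678 in macrophages at 1 h and 202 and 241 at 3 h, against 657 and 677 at 0 h. It stayed between 518 and 605 in microglia, and its difference was -0.60 ± 0.13 (limma, adjusted p = 0.0228).

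Of the 15 MAP kinase feedback genes, 3 had a higher change in macrophages (1.11% of all genes), with a median of 1.16 for the list. Errfi1, an inhibitor of the EGF receptor family, was at 83.6 and 74.8 in macrophages at 1 h and 61.3 and 93.7 at 3 h, against 7.65 and 7.34 at 0 h. It was at 24.7 and 26.9 in microglia at 0 h, and between 17.3 and 36.4 later. Its difference was 3.26 ± 0.45, or 9.58-fold (limma, adjusted p = 0.00027). Phlda1 had a difference of 2.19 ± 0.28 (limma, adjusted p = 0.000114). Dusp6, the phosphatase of ERK kinases, had one of 1.40 ± 0.24 (limma, adjusted p = 0.00215). Dusp5, a phosphatase of the same group, was at 482 and 393 in macrophages at 1 h, against 26.2 and 31.8 at 0 h, and at 16.5 and 19.1 in microglia at 1 h, against 3.63 and 7.42 at 0 h. Its early difference of 1.63 ± 0.42 did not pass (limma, adjusted p = 0.0552).

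Large differences were also found in genes outside these lists. Trib1, a pseudokinase that steers degradation of C/EBP factors, was at 32.8 and 25.7 in macrophages at 0 h, 408 and 409 at 1 h, and 312 and 323 at 3 h. In microglia Trib1 was at 124 and 104 at 0 h, 171 and 205 at 1 h, and 130 and 130 at 3 h. It thus stood below microglia at 0 h and above them at both later times. Its difference was 3.13 ± 0.19, or 8.77-fold (limma, adjusted p = 4.56e-09). Odc1, ornithine decarboxylase, the first enzyme of polyamine synthesis, was at 65.4 and 79.4 in macrophages at 0 h, 504 and 462 at 1 h, and 705 and 558 at 3 h. Its 6 microglia values lay between 102 and 138. The difference of Odc1 was 2.65 ± 0.18, or 6.27-fold (limma, adjusted p = 1.9e-08).

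Listed at 1 in both macrophage libraries at 0 h, 1300014I06Rik (current symbol Pxdc1) was at 22.4 and 16.4 at 1 h and 41.6 and 43.3 at 3 h. It had 161 to 207 in all 6 microglia libraries. Its difference was 3.81 ± 0.29 (limma, adjusted p = 9.24e-08), a value that depends on the pseudocount because it was listed at 1 at 0 h and that ranged from 2.64 to 3.94 over the alternative fits, and its macrophage level stayed far below that of microglia. Rgs16, which shortens signalling by G proteins, had a difference of 3.66 ± 0.63 (limma, adjusted p = 0.00244), and 1190002H23Rik (current symbol Rgcc) one of 3.01 ± 0.42 (limma, adjusted p = 0.000272). Trem1, a receptor that amplifies inflammatory signals, was at 8.74 and 16.3 in macrophages at 0 h and 51.3 to 138 later, and no microglia library had more than 1.00. Its difference of 2.56 ± 0.49 is therefore the change of macrophages alone (limma, adjusted p = 0.00712), and without the first macrophage library at 0 h it was 2.15 (adjusted p = 0.0608). Cytip, an adaptor of cytohesins in leukocyte adhesion, was at 97.7 and 116 in macrophages at 3 h, against 31.7 and 34.3 at 0 h, and at 1.72 and 2.91 in microglia at 3 h, against 18.1 and 11.1 at 0 h. Its difference of 2.78 ± 0.61 passed (limma, adjusted p = 0.0211), but the change in microglia alone did not (limma, adjusted p = 0.379), and the call was lost in 5 of the 12 fits without a library (adjusted p 0.00366 to 0.151 over all alternatives). Pex3, a peroxisome assembly factor, had a difference of 2.44 ± 0.58 (limma, adjusted p = 0.0386) that was lost in 9 of these 12 fits (0.00201 to 0.225).

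**Figure D3:**
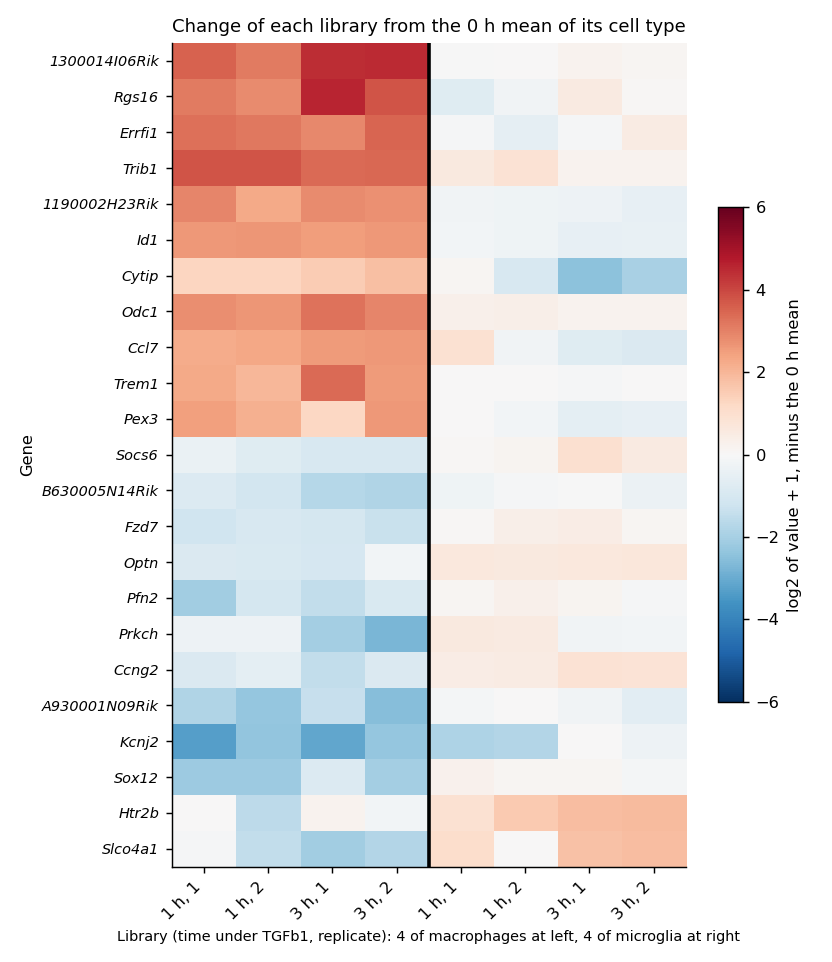
Change of each treated library from the 0 h mean of its cell type (log2 of value + 1, red above and blue below 0), in 4 macrophage libraries (left) and 4 microglia libraries (right). Drawn are 11 of the 12 largest higher differences and the 12 largest lower ones. Both were taken among called genes with a mean value of at least 20 and no overlap of library changes. The separation of the cell types in each row was therefore set by the choice of genes. Genes at the top are red in all 4 macrophage libraries and near white in most microglia libraries, whereas in Htr2b and Slco4a1 at the bottom the microglia libraries carry much of the difference.

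Among the 28 proinflammatory and NF-kB genes, 5 had a higher change in macrophages (1.11% of all genes) and none a lower one, with a median of 0.45. Cd83, a surface protein of activated antigen-presenting cells, was at 295 and 195 in macrophages at 1 h and 123 and 115 at 3 h, against 71.0 and 56.3 at 0 h. In microglia it was at 351 and 375 at 1 h and 199 and 210 at 3 h, against 372 and 343 at 0 h. Its difference was 1.79 ± 0.26 (limma, adjusted p = 0.000402). Nfkbia, the inhibitor that NF-kB induces against itself, had a difference of 0.85 ± 0.13 (limma, adjusted p = 0.000807), and Cd14, the co-receptor for lipopolysaccharide, one of 0.88 ± 0.12 (limma, adjusted p = 0.000322). Tnf and Il1b, the cytokines most used to mark inflammation, did not pass. Tnf had 439 to 590 in the 6 macrophage libraries and 71.4 to 186 in microglia, with a difference of -0.54 ± 0.17 (limma, adjusted p = 0.15). It passed with quantile normalization (adjusted p = 0.0461) and without the first microglia library at 0 h (adjusted p = 0.0496). Within microglia Tnf rose by 0.80 ± 0.12 (limma, adjusted p = 0.00232). Il1b had a difference of 0.55 ± 0.17 (limma, adjusted p = 0.132), and 0.81 without the second microglia library at 0 h (adjusted p = 0.012).

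Of 19 measured chemokines, 4 had a higher change in macrophages (1.11% of all genes), with a median of 0.35. Ccl2, which draws monocytes, was at 838 and 791 in macrophages at 0 h, 2139 and 2269 at 1 h, and 2808 and 2995 at 3 h, whereas no microglia library exceeded 15.2. Its difference was 2.31 ± 0.37 (limma, adjusted p = 0.00134). Ccl2 rose by 1.63 in macrophages. Its change of -0.675 in microglia rests on few reads and did not pass (limma, adjusted p = 0.615). Ccl7, its neighbour in function, was at 294 and 367 in macrophages at 0 h and 1535 to 1981 later, against 0.725 to 4.95 in microglia, where a few reads decide the change. Its difference of 2.63 ± 0.59 (limma, adjusted p = 0.0255) was lost in 4 of the 12 fits without a library (0.000105 to 0.217 over all alternatives). Ccl3 belongs to the count of higher changes, although it fell in both cell types. Macrophages had 711 and 740 at 3 h, against 1086 and 1157 at 0 h, and microglia 96.3 and 97.5 at 3 h, against 216 and 245 at 0 h. Ccl3 fell by 0.42 in macrophages and by 1.00 in microglia, a difference of 0.58 ± 0.13 (limma, adjusted p = 0.0286) that was lost in 6 of the 12 fits (0.0144 to 0.189).

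Receptors for chemokines and other attractants, 12 measured, had 1 higher (1.11% of all genes) and 2 lower changes (0.389%). Cxcr4, the receptor for Cxcl12, rose in microglia by 0.76 ± 0.09 (limma, adjusted p = 7.75e-05), and its difference was -0.50 ± 0.12 (limma, adjusted p = 0.0438), lost in 10 of the 12 fits without a library (0.0059 to 0.234 over all alternatives). In macrophages Cxcr4 rose by 0.27 ± 0.09 over both times, which did not pass (limma, adjusted p = 0.0704). At 1 h alone its rise of 0.39 in macrophages passed (limma, adjusted p = 0.0313). Ptafr, the receptor for platelet-activating factor, was at 90.4 and 71.4 in macrophages at 3 h, against 294 and 277 at 0 h, and at 51.7 and 56.8 in microglia at 3 h, against 75.1 and 82.6 at 0 h. Its difference was -1.10 ± 0.21 (limma, adjusted p = 0.00718), and -1.03 without the first microglia library at 0 h (adjusted p = 0.0587).

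Growth factors gave 3 higher changes among 14 measured genes (1.11% of all genes), with a median of 0.63. Vegfa, which drives growth of blood vessels, was at 335 and 321 in macrophages at 1 h and 239 and 269 at 3 h, against 56.8 and 68.5 at 0 h. Microglia had 72.6 and 88.4 at 1 h and 44.7 and 50.2 at 3 h, against 45.7 and 38.0 at 0 h. Its difference was 1.64 ± 0.23, or 3.11-fold (limma, adjusted p = 0.000369). Osm, a cytokine of the interleukin 6 family, had a difference of 2.14 ± 0.36 (limma, adjusted p = 0.00209). Pdgfa, a growth factor for connective tissue and glial precursors, rose in both cell types and had a difference of 0.94 ± 0.20 (limma, adjusted p = 0.0143). That call was lost without the second library at 0 h of macrophages (0.87, adjusted p = 0.0647) or of microglia (0.83, adjusted p = 0.118), with quantile normalization (adjusted p = 0.0801) and without trend or robust options (0.0855).

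Matrix and protease genes had 6 higher changes among 30 measured (1.11% of all genes), and a median of 0.13. Tgm2, an enzyme that crosslinks matrix proteins, was at 974 and 926 in macrophages at 1 h and 2127 and 1851 at 3 h, against 358 and 311 at 0 h, while microglia stayed between 106 and 170. Its difference was 1.69 ± 0.22, or 3.22-fold (limma, adjusted p = 0.000131). Thbs1, a matrix protein that can release active TGFb, had a difference of 1.94 ± 0.33 (limma, adjusted p = 0.00243). Adam8, a membrane protease of leukocytes, had one of 0.49 ± 0.06 (limma, adjusted p = 8.5e-05) that did not pass without trend or robust options (adjusted p = 0.0921). In the actin and adhesion list of serum response, 6 of 17 had a higher change (1.11% of all genes), with a median of 0.57. Actb was at 35203 and 35890 in macrophages at 1 h and 39780 and 42688 at 3 h, against 30209 and 31150 at 0 h, and between 22535 and 23591 in microglia. Its difference of 0.32 ± 0.04 was small and passed (limma, adjusted p = 1.82e-05), but not without trend or robust options (adjusted p = 0.299). Actg1, the other cytoplasmic actin, had 0.75 ± 0.07 (limma, adjusted p = 1.15e-06). Slc2a1, the glucose transporter GLUT1, was the one call among 25 glycolysis and hypoxia genes (1.50% of all genes), with a difference of 1.44 ± 0.15 (limma, adjusted p = 1.34e-05).

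Averaged over 1 h and 3 h, lists of mature cell functions had calls at about the share of all genes. No member was called among 18 genes of alternative activation, 9 of MHC class II, 29 of lysosome and lipid handling, 22 of sterol synthesis, 14 of heat shock and 35 of the cell cycle, against 1.50% of all genes. Their medians lay between -0.05 and 0.13. At 3 h alone, where 2.07% of all genes were called higher and 1.18% lower, several members passed, and they were singled out after their values were seen. Of alternative activation 3 were higher in macrophages, Arg1, Il4ra (a subunit of the interleukin 4 receptor), at 1.32, and Socs2 (a suppressor of cytokine signalling), at 1.75. Of lysosome and lipid handling, the cholesterol exporter Abca1 was higher, at 1.07, while its relative Abcg1, at -0.93, the haem-degrading enzyme Hmox1, at -0.40, and the lysosomal lipase Lipa, at -0.25, were lower. Of heat shock, the chaperones Dnajb1, at -1.27, and Hspa5, at -0.47, were lower. Of the cell cycle, the cyclin Ccnd1 was higher, at 0.91, and the replication factor Mcm3 lower, at -0.88. Among 42 interferon response genes 1 was called over both times, against 1.50% of all genes. It was Irf1, a transcription factor of interferon signalling, at 81.7 and 99.4 in macrophages at 1 h and 63.4 and 64.4 at 3 h, against 125 and 138 at 0 h. Microglia had 77.5 and 70.2 at 1 h and 38.7 and 26.2 at 3 h, against 37.0 and 37.1 at 0 h. Its difference was -1.16 ± 0.23 (limma, adjusted p = 0.0104), and the call was lost without the second macrophage library at 0 h (adjusted p = 0.0538) or either microglia library at 0 h (adjusted p = 0.0543 and 0.0544). Irf7, another factor of that system, had a difference of -0.14 ± 0.36 (limma, adjusted p = 0.942). Of 36 microglia identity genes 8 rose within macrophages (4.26% of all genes) and 2 within microglia (0.284%). At 1 h the difference passed as higher in macrophages for 1 member (0.511% of all genes) and as lower for 1 (0.0973%). At 3 h it passed as higher for 3, Cx3cr1, Gpr56 and Rhob (2.07% of all genes), and as lower for none (1.18%). Over both times it passed for 1 (1.50% of all genes). That gene was Rhob, a small GTPase, with a difference of 1.25 ± 0.11 (limma, adjusted p = 5.54e-07). Cx3cr1, the fractalkine receptor of microglia, had 69.6 and 73.2 in macrophages at 3 h, against 27.9 and 31.8 at 0 h, and 1804 to 2135 in the microglia libraries. Its early difference of 0.43 ± 0.11 did not pass (limma, adjusted p = 0.0562), and that at 3 h was 1.08 (limma, adjusted p = 3.62e-05). The early difference passed with a mean value of at least 10 (adjusted p = 0.0429), with array weights (0.0464) and without the second macrophage library at 0 h (0.0295) or at 1 h (0.0259). P2ry12 had a difference of 1.55 ± 0.62 (limma, adjusted p = 0.302).

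**Figure D4:**
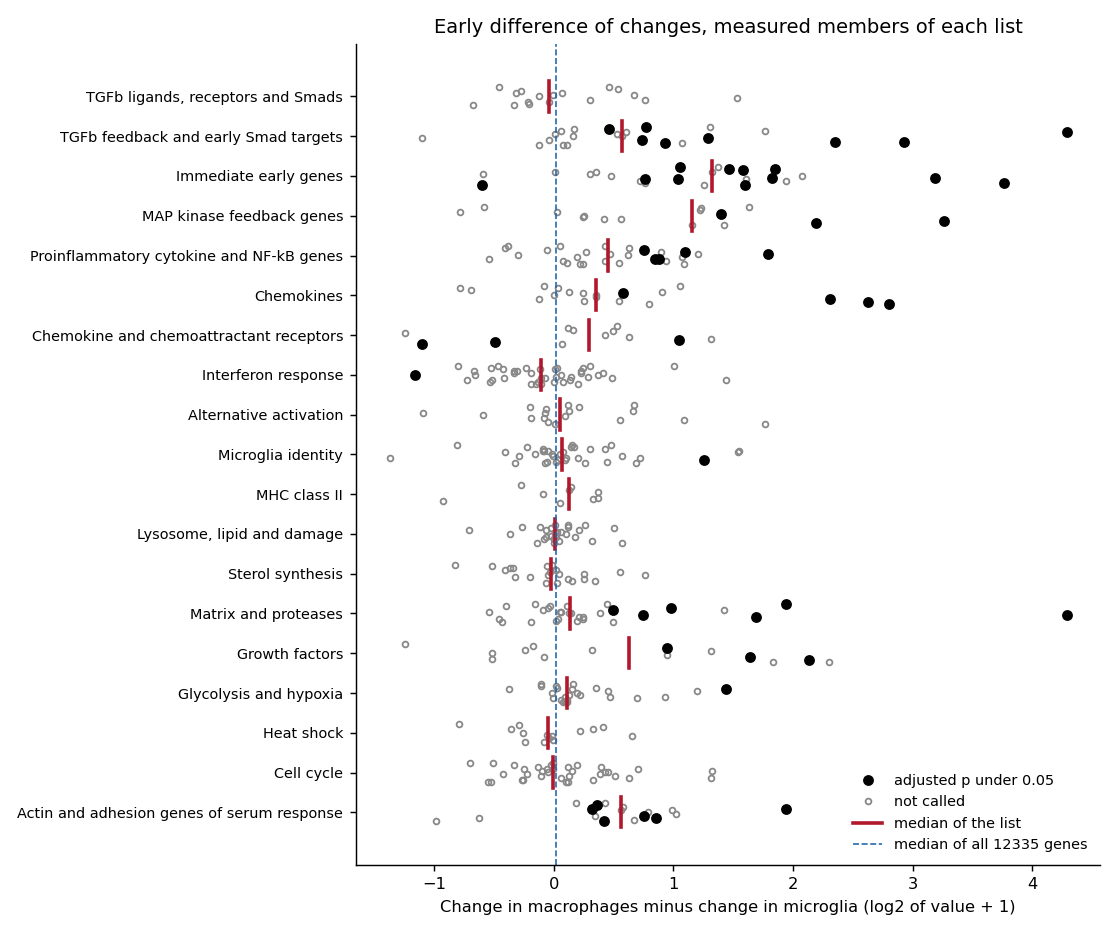
Early difference of changes, macrophages minus microglia (log2), for each measured member of 19 gene lists. Filled points passed limma's test (adjusted p under 0.05), open points did not, red bars are list medians and the dashed line is the median of all genes; immediate early and MAP kinase feedback genes have the highest medians, at 1.32 and 1.16.

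Atf4, a transcription factor of the amino acid and stress response, was the single gene called in opposite directions in the cell types when 1 h and 3 h were averaged. It was at 855 and 898 in macrophages at 1 h and 537 and 582 at 3 h, against 863 and 858 at 0 h. In microglia Atf4 was at 1403 and 1423 at 1 h and 1118 and 1190 at 3 h, against 1009 and 1038 at 0 h. It fell in macrophages by 0.30 (limma, adjusted p = 0.000354), rose in microglia by 0.32 (limma, adjusted p = 0.00168), and its difference was -0.62 ± 0.07 (limma, adjusted p = 1.34e-05). At neither time alone did both changes pass. In macrophages the change was 0.03 at 1 h (limma, adjusted p = 0.96) and -0.62 at 3 h (limma, adjusted p = 1.09e-07), and in microglia it was 0.46 at 1 h (limma, adjusted p = 8.74e-05) and 0.17 at 3 h (limma, adjusted p = 0.29). Atf4 was picked out after its values were seen.

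The lower differences were fewer, and more of their calls were lost when a library was left out. Kcnj2, an inward rectifier potassium channel, was at 10.7 and 21.5 in macrophages at 1 h and 12.5 and 22.2 at 3 h, against 109 and 122 at 0 h. Microglia also had less at 1 h, 33.0 and 34.7, against 118 and 123 at 0 h, but 121 and 96.8 at 3 h. Kcnj2 was thus low in both cell types at 1 h and back at its starting level in microglia at 3 h. Its difference was -1.04 at 1 h (limma, adjusted p = 0.494) and -2.57 at 3 h (limma, adjusted p = 0.000905). Over both times it was -1.81 ± 0.36 (limma, adjusted p = 0.0094), a call lost without the first (adjusted p = 0.0616) or the second (adjusted p = 0.0523) microglia library at 0 h. B630005N14Rik (current symbol Bmt2) was at 218 and 217 in macrophages at 0 h and 62.0 to 122 later, against 122 to 168 in microglia. Its difference of -1.19 ± 0.21 (limma, adjusted p = 0.00377) held in every alternative fit. Ccng2, an unusual cyclin linked to cell-cycle arrest, likewise held in each, at 16.6 and 25.8 in macrophages at 3 h, against 44.8 and 52.6 at 0 h, and at 105 and 103 in microglia at 3 h, against 54.4 and 60.3 at 0 h. Its difference was -1.62 ± 0.29 (limma, adjusted p = 0.00396).

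Slco4a1, an organic anion transporter, had the most negative difference of the named genes, -2.52 ± 0.59 (limma, adjusted p = 0.0355). Its values spread widely, at 193 and 115 in macrophages at 0 h, 143 and 52.3 at 1 h and 34.3 and 43.3 at 3 h, and at 11.6 and 2.78, 13.2 and 6.07, and 22.4 and 24.0 in microglia. Neither cell type passed alone, and the call was lost in 7 of the 12 fits without a library (0.00456 to 0.276 over all alternatives). Prkch, a protein kinase C, had a difference of -1.56 ± 0.31 (limma, adjusted p = 0.0108), and Socs6, a suppressor of cytokine signalling, one of -1.19 ± 0.23 (limma, adjusted p = 0.00716). Without the second microglia library at 0 h neither passed (adjusted p = 0.0923 for Prkch and 0.063 for Socs6), nor did Prkch without the first macrophage library at 0 h (0.0848). Pfn2 and Sox12 had at most 8.74 in any macrophage library, against at least 67.7 in microglia, so their differences of -1.52 ± 0.36 and -1.90 ± 0.43 rest on few reads and passed no longer with a pseudocount of 4. The calls of A930001N09Rik (current symbol Crebrf), Fzd7, Htr2b and Optn, with differences of -1.78, -1.37, -1.93 and -1.38, were each lost in 8 to 11 of the 12 fits without a library.

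The difference was larger in size at 3 h than at 1 h for 105 of the 137 higher and 36 of the 48 lower genes, but few of these steps passed a test. At 1 h alone 75 genes (0.608%) differed, 63 higher (0.511%) and 12 lower (0.0973%) in macrophages. At 3 h alone 400 genes (3.24%) differed, 255 higher (2.07%) and 145 lower (1.18%). Of the 137 genes, 46 were called at both times, 81 at 3 h only and 5 at 1 h only. Of the 48, 2 were called at both times, 32 at 3 h only and 4 at 1 h only. Both times share the 0 h libraries, so the overlap is given as a count and not as a result. The median change in macrophages of the 137 was 1.06 at 1 h and 1.46 at 3 h (log2), and in microglia it was 0.04 and -0.04.

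A direct test of the step between 1 h and 3 h, which does not use the 0 h libraries, passed for 170 genes (1.38%). The step was higher in macrophages in 88 (0.713%) and lower in 82 (0.665%). Of the 137 higher genes, the step passed upward for 20 and downward for 2. Of the 48 lower genes, it passed downward for 12 and upward for 1. Pmepa1 had a step of 2.37 (limma, adjusted p = 1.46e-08) and Tgm2 one of 1.21 (limma, adjusted p = 0.0165), both higher in macrophages. Rhob had one of -1.11 (limma, adjusted p = 3.61e-05), with 841 and 867 in macrophages at 1 h and 450 and 462 at 3 h, against 390 and 376 at 1 h and 467 and 420 at 3 h in microglia. Arg1, arginase 1, a gene of alternative activation, had 1.94 and 1.03 in macrophages at 1 h and 15.6 and 15.2 at 3 h, and no more than 2.47 in microglia at either time. Its step was 3.37 (limma, adjusted p = 0.0225), whereas its early difference was 1.77 ± 0.63 and did not pass (limma, adjusted p = 0.223). Without the first microglia library at 0 h the early difference was 2.83 (adjusted p = 0.0152).

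**Figure D5:**
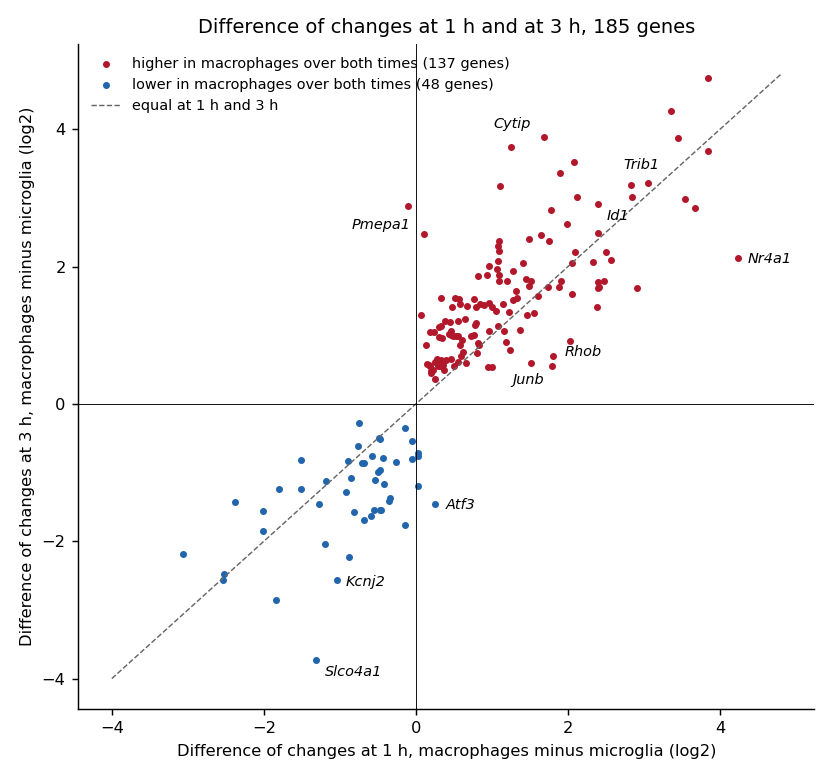
Difference of changes at 1 h (horizontal) and at 3 h (vertical), macrophages minus microglia (log2), for the 185 genes called over both times, red for the 137 higher and blue for the 48 lower in macrophages. The difference was larger in size at 3 h in 105 of the red points and 36 of the blue ones. Pmepa1 is near 0 at 1 h and at 2.47 at 3 h. Nr4a1, at 4.24 and 2.13, lies below the line, but its step between the times did not pass a direct test.

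In the 185 genes, selected on their early difference, the median difference was smaller at later times, and none was called with the opposite sign. Over 6, 16 and 20 h against 0 h, 470 genes (3.81%) differed, 279 higher (2.26%) and 191 lower (1.55%) in macrophages. Of the 137 early genes, 68 were called higher there and none lower, and of the 48, 14 were called lower and none higher. The median late difference was 0.59 for the 137 and -0.54 for the 48, against 1.21 and -0.96 early. The same 0 h libraries enter both, so sign and size are not independent. Selection on the early difference also favours a larger early median, so the medians do not measure a decline. Macrophages had 1 library at 6 h.

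Promoter sequences, from 250 bases before to 50 after a start in RefSeq's annotation of GRCm38.p6, were found for 103 of the 137 higher and 36 of the 48 lower genes. They are shown for 4 genes, Odc1 and 1300014I06Rik for calls that held in every alternative fit, Fos for the AP-1 family and Atf4 for its opposite calls over both times. The windows of Rhob and Actg1, whose calls also held in every alternative fit, are not shown. They had none of the letters searched for. The build is not the mm9 of the alignments, and no coordinate was carried from one to the other. Capitals mark the letters TATAAA, the core of the TATA box that positions RNA polymerase, found 33 bases before the start of Fos and 28 before that of 1300014I06Rik.
Fos (chr12:85473640-85473939, plus strand): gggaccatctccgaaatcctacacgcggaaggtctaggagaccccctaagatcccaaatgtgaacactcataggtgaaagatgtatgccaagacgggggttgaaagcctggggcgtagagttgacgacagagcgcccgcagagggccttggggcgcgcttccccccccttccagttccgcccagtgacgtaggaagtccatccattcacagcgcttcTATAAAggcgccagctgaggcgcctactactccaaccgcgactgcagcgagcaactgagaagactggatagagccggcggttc
1300014I06Rik (chr13:34652632-34652931, minus strand): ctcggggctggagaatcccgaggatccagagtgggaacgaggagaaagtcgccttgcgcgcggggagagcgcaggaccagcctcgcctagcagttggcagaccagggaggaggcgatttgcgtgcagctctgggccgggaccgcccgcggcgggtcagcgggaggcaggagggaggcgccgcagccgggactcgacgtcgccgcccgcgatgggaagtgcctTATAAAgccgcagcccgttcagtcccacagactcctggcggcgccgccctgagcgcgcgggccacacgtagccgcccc
Odc1 (chr12:17544623-17544922, plus strand): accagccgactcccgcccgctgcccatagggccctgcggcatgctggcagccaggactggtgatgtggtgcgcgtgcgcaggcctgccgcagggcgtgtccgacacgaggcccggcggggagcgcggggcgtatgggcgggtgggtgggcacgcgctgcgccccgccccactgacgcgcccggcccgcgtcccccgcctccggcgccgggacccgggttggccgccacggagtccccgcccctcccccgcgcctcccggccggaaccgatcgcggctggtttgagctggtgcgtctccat
Atf4 (chr15:80254934-80255233, plus strand): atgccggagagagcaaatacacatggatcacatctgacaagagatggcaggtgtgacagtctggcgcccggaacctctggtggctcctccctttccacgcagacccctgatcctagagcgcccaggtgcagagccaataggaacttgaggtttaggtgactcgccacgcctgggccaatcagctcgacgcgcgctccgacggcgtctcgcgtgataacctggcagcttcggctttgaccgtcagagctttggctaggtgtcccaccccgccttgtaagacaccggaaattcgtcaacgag

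TATAAA, searched on both strands, stood in the window of 17.5% of the higher genes and 2.78% of the lower genes, against 8.77% of the 9636 measured genes with a window. The AP-1 site TGACTCA stood in 7.77% of the higher and in 0 of 36 lower genes, against 4.55% of all. CAGACA, the Smad box with its flank, stood in 21.4% of the higher and 13.9% of the lower genes, against 18.7% of all, and the cAMP response element TGACGTCA in 1.94% and 2.78%, against 3.57%. GTCTAGAC, the palindromic Smad element, stood in no window of a called gene and in 0.332% of all. These shares are descriptions of the letters, with no test, and Smads and AP-1 also act from enhancers that lie outside such windows.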

How the data were processed

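RNA had been extracted with a miRNeasy kit, per the labels' protocols. The submitters' processing notes name TopHat and the mouse build mm9. For the TopHat version, the counter, the annotation and the scaling, the labels and headers used here name nothing. The deposited table holds a signal per gene and library that the authors had scaled. In the 12 libraries at 0, 1 and 3 h, 87.9 to 89.4% of low values (20 reads or fewer) lay within 0.05 steps of a whole multiple of a single step, so no count model was fitted. That step, 0.725 to 1.22, was taken as 1 read. It gave the estimated reads, and low genes have the least precision. A line without a gene name (at most 0.0140% of a total) was left out.

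Of 12335 gene names, 11141 matched a reference symbol. The fit was limma 3.58.1 (R 4.3.3) on log2(value + 1), with 1 coefficient per cell type and time. All 23 culture libraries shared the spread, and the empirical Bayes step used trend and robust options. Benjamini-Hochberg adjustment covered every gene of a contrast, and calls were made under 0.05. The pseudocount of 1 shrinks the change of low genes, and fold values are on that scale. The median SE of the early difference was 0.367. Simulated data had independent normal noise and 50 changed genes per size. All changed genes had a mean value of at least 20 and the same added change at 1 h and 3 h. The test of the early difference over 12335 genes recovered 25 at a log2 size of 1, 42 at 2 and 49 at 3. Of 167 calls, 16 were false, a larger share than the threshold of 0.05. Recovery was not measured for genes of lower value or for a change at a single time.

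Named were the 12 largest differences per direction with a mean value of at least 20 and no overlap of library changes, up to 3 called members per list, and 13 genes chosen by name. Of the genes so named, 2 are not reported here. The members and lists were chosen with earlier results of these data known, and counts per list carry no test of the list. Alternatives were a pseudocount of 4, quantile normalization, median-of-ratios scaling, a mean value of at least 10, a fit of 0, 1 and 3 h only, a fit without trend and robust options, array weights, a replicate block, and leaving out each library, when the other library of its group was taken to vary like the rest. Sequences came from RefSeq (GRCm38.p6).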

Additional observations from a re-analysis of the deposited data

Results flagged for a closer look

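The changes of the cell types differed in 185 genes over 1 and 3 h, and the step from 1 h to 3 h differed in 170 (limma, adjusted p under 0.05 for the difference itself). Among the named genes the step was larger in macrophages for Arg1, by 3.37 on the log2 scale, Pmepa1 by 2.37, Cx3cr1 by 1.29, Tgfbi by 1.21, Tgm2 by 1.21, Adam8 by 0.72, Cd14 by 0.65, Actg1 by 0.46 and Actb by 0.26. It was lower in macrophages for Id3, at -1.26, Rhob, at -1.11, and Junb, at -0.91. Atf4 had an early difference of -0.62, with a fall in macrophages and a rise in microglia that each passed when 1 h and 3 h were averaged, and not both at either time alone. The value of Arg1 rests on at most 15.6 in any of the macrophage libraries at 1 h or 3 h. No group had 4 libraries, so single libraries were not tested as outliers.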

How the results depend on the processing

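No named call reversed, and no scaling moved the median of all genes by over 0.1. Of 52 named calls, 28 held in every alternative, 31 with any library left out and 34 in the 8 other alternatives. Of the 185 genes, 177 stayed called with a pseudocount of 4, 133 with quantile normalization, 182 with median-of-ratios scaling, 125 in the fit of 0, 1 and 3 h only, 95 without trend or robust options and 178 with array weights. Quantile normalization gave 54 genes up and 19 down in microglia. The fit of 0, 1 and 3 h only gave 27 lower early, 6 lower at 1 h and 21 up in microglia. Without trend or robust options 22 were lower early, 7 lower at 1 h, 158 higher and 86 lower at 3 h, and 6 rose and 5 fell in microglia. Array weights gave 171 down in macrophages and 77 up and 28 down in microglia. The replicate block gave 129 higher and 40 lower early, with 159 of the 185 kept. Deviations of libraries with the same letter correlated at -0.018 to 0.036, so no pairing by letter was seen. Noise of single libraries can hide a small shared deviation, so the check cannot exclude a pairing. The cause of these shifts was not tested.

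With each library left out in turn, early counts were 93 to 151 higher and 13 to 50 lower, those at 1 h 46 to 70 and 4 to 22, those at 3 h 163 to 264 and 78 to 162, those in macrophages 384 to 485 up and 157 to 318 down, and those in microglia 11 to 43 up and 6 to 15 down. Early lower counts moved by over 1.5 times without the first macrophage library at 0 h (24), the first (22) or second (13) microglia library at 0 h, the first (26) or second (24) at 1 h, and the first (24) or second (26) at 3 h. Genes down in macrophages were 166 or 157 without the first or second macrophage library at 0 h. Without the second microglia library at 1 h, whose time tag differs, 112 were higher and 24 lower early. Among named genes without a call, Id3, Cx3cr1, Tnf, Il1b and Arg1 passed in at least 1 alternative. Few reads limit the precision of low genes.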
